A study of Sus scrofa with 6 samples.

Results

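A group of 8 linked genes of type 1 immunity was followed across 6 single-cell libraries: the chemokines Cxcl9 (ENSMUSG00000029417) and Cxcl10 (ENSMUSG00000034855), their receptor Cxcr3 (ENSMUSG00000050232), the cytokine interferon-gamma, Ifng (ENSMUSG00000055170), and the cytotoxic effector genes Gzma (ENSMUSG00000023132), Gzmb (ENSMUSG00000015437), Prf1 (ENSMUSG00000037202) and Nkg7 (ENSMUSG00000004612). They were chosen by name, by an exact match to the gene symbols of the deposited feature lists, and make up 8 of 32285 measured genes. All 8 were found.

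Interferon-gamma is released by activated natural killer (NK) cells and T cells and acts on macrophages, fibroblasts, endothelium and keratinocytes. Among the genes it induces are Cxcl9 and Cxcl10, which attract lymphocytes that carry Cxcr3, so that the cytokine, the chemokines and the receptor form a loop between lymphocytes and the tissue. Cxcl10 also responds directly to type I interferon and to inflammatory signals, whereas Cxcl9 depends more strictly on interferon-gamma. The cytotoxic genes belong to the killing arm of the same cells: Prf1 encodes perforin, which opens the target membrane, Gzma and Gzmb encode granule serine proteases that enter through it, and Nkg7 encodes a granule membrane protein needed for normal degranulation. In the mouse, Gzmb is also made by regulatory T cells, dendritic epidermal gamma-delta T cells and mast cells.

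The labels describe unsorted cells of red duroc pig skin, 1 library per label. Pretreatment, continuous, chronic and acute stand for a deferoxamine patch of 1 mg worn in 4 schedules: 2 weeks before radiotherapy, 18 weeks spanning the whole experiment, 4 weeks once the skin had recovered, and 12 weeks of recovery after radiation. The labels of the remaining libraries read irradiated skin, taken here as the reference for the patch schedules, and normal skin. The series title, by contrast, names an anti-JUN therapeutic and post-operative adhesions, and every gene feature of all 6 libraries is a mouse Ensembl gene. The chronic, acute, irradiated and normal libraries also count 4 anti-mouse hashtag antibodies. Each library is therefore called here by its label only, and no difference is ascribed to radiation or to deferoxamine. With 1 library per label there is no replicate: intervals cover counting error only, and no p-value was computed.

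After filtering, 1477 cells were kept in pretreatment, 8213 in continuous, 8466 in chronic, 21719 in acute, 19911 in irradiated and 15938 in normal. The median barcode held 7040 UMIs in pretreatment, 3023 in continuous, 2610 in chronic, 1339 in acute, 1572 in irradiated and 1356 in normal, so depth differed between libraries. Between 1.69% and 2.82% of the barcodes of a library also occurred in another. Cells were assigned to types by panels of 8 markers each, none of them one of the 8 genes. The T and NK gates held 99 cells in pretreatment, 926 in continuous, 1519 in chronic, 920 in acute, 843 in irradiated and 816 in normal, and all 8 T markers were detected in each. The macrophage and monocyte gates held 225, 2141, 2792, 8563, 6625 and 3481 cells in the same order of libraries, again with every marker of both panels detected. Levels are given in CPM, the gene's UMIs per 1000000 UMIs of that gate and library. They are not corrected for transcript length, so a level is compared between cell types and libraries, not between genes.

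The genes divided by cell type into a chemokine pair and a lymphocyte group. Cxcl9 had 18491 UMIs in 3923 of 75724 kept cells, 50.1% of them in macrophages and monocytes, 21.5% in fibroblasts and 7.11% in endothelial cells. Cxcl10 had 73929 UMIs in 19186 cells, 48.4% of them in macrophages and monocytes, 20.0% in fibroblasts and 13.5% in neutrophils. T and NK cells held 60.98% of Gzmb UMIs, 63.7% of Nkg7, 54.3% of Gzma, 53.4% of Ifng, 49.9% of Prf1 and 48.6% of Cxcr3. Cells that met no panel held between 12.3% and 20.1% of the UMIs of these 6 lymphocyte genes, and macrophages and monocytes between 10.3% and 23.6%.

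**Figure D1:**
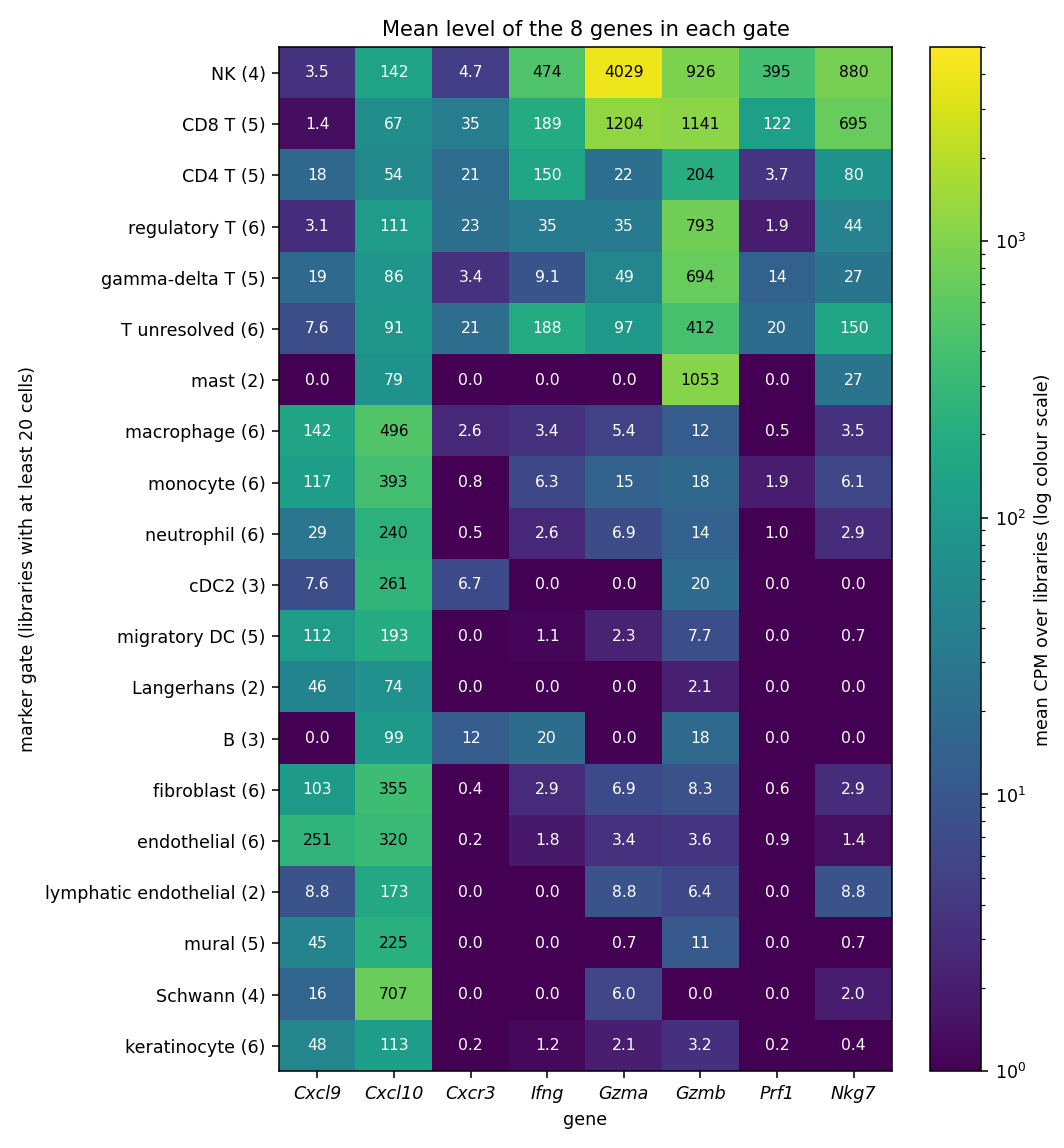
Level of each of the 8 genes (columns) in marker gates (rows), as the mean over libraries with at least 20 cells in the gate (their number in brackets), in CPM on a log colour scale. Values under 1 share the darkest colour. Unresolved mononuclear cells are not drawn, nor is the gate of type 2 innate lymphoid cells, with 26 cells in 1 library, Cxcl10 at 752 CPM (61 UMIs) and Gzmb at 629. Ifng, Gzma, Prf1 and Nkg7 had their highest means in the NK gate and the next in CD8 T cells, while Cxcl9 and Cxcl10 were spread over myeloid and stromal gates.

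Comparing libraries, a gene was counted as higher or lower when its level in its main cell types differed 2-fold or more and at least 20 UMIs stood behind the pair; all 8 genes met that minimum in each of 5 comparisons. The main cell types are macrophages plus monocytes for Cxcl9 and Cxcl10 and T plus NK cells for the other 6 genes. The share of all genes with as many UMIs that were higher or lower in the same cells is given beside each count. Irradiated against normal, Cxcl10 was higher and neither chemokine lower in macrophages and monocytes, where 3.23% of all genes were higher and 1.92% lower. For T and NK cells of that pair, Cxcr3 was lower and none of the 6 lymphocyte genes higher, where 3.94% of all genes were higher and 2.23% lower. Pretreatment against irradiated, Cxcl10 was lower, where 14.5% of all genes were higher and 14.8% lower. Ifng was the 1 of 6 lymphocyte genes that was lower in that pair and none was higher, where 5.94% of all genes were higher and 17.3% lower, so that 1 of 6 is close to the background. No gene of the 8 reached 2-fold between continuous and irradiated, where 4.83% of all genes were higher and 11.5% lower in macrophages and monocytes, and 4.36% higher and 10.6% lower in T and NK cells. Chronic against irradiated, Cxcl9 was higher and Cxcl10 lower, where 2.26% of all genes were higher and 6.94% lower. Prf1 was the 1 of 6 lymphocyte genes that was lower in chronic and none was higher, where 2.66% of all genes were higher and 9.39% lower. Acute against irradiated, Cxcl9 was lower, where 1.99% of all genes were higher and 0.881% lower, and none of the 6 lymphocyte genes reached 2-fold, where 1.46% were higher and 2.57% lower. The 4 patch comparisons share the irradiated library, so a shift in that library alone enters all of them.

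**Figure D2:**
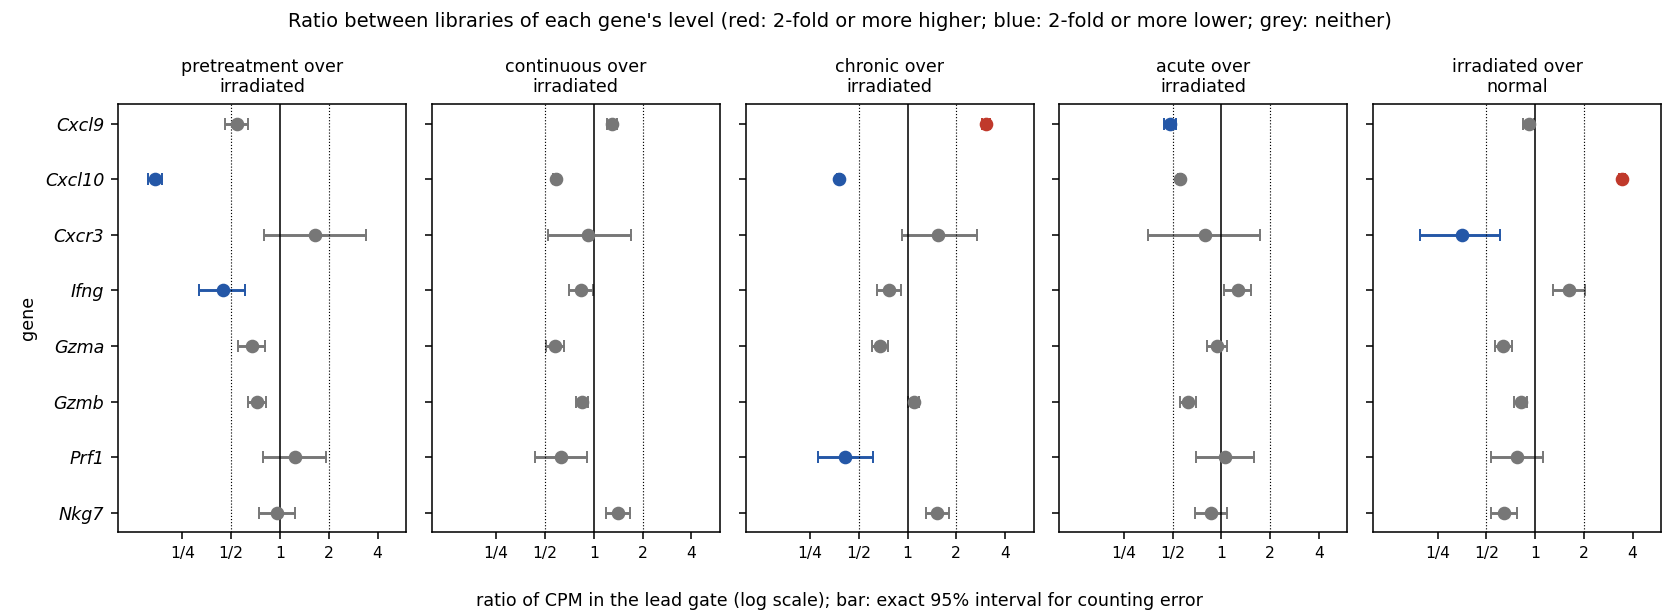
Ratio of the level of each gene (rows) between libraries (panels, the first-named library over the second), in macrophages plus monocytes for Cxcl9 and Cxcl10 and in T plus NK cells for the rest; the axis is logarithmic, bars are exact 95% intervals for counting error, and dotted lines mark 2-fold. Cxcl9 and Cxcl10 lie on opposite sides of 1 in the chronic panel, at 3.03 and 0.378, and all 8 genes lie between the dotted lines in the continuous panel.

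Cxcl9, the chemokine most tied to interferon-gamma, was highest in chronic macrophages and monocytes. In macrophages and monocytes its level was 57.4 CPM in pretreatment, 137 in continuous, 320 in chronic, 51.0 in acute, 106 in irradiated and 116 in normal. The chronic value was 3.03 times the irradiated one (95% interval 2.86 to 3.21), and the acute value 0.482 times (0.444 to 0.524), which missed 2-fold in cells thinned to 1000 UMIs, at a log2 ratio of -0.96. Irradiated and normal were close, at a ratio of 0.912 (0.842 to 0.987). The chronic excess was found in macrophages (2.88-fold, 2.68 to 3.09), monocytes (3.24-fold, 2.95 to 3.56) and fibroblasts (2.24-fold, 2.05 to 2.44), and was 2.84-fold, 3.20-fold and 2.13-fold there without the cell with most Cxcl9 UMIs in each library. Neutrophils had a ratio of 2.16 (1.86 to 2.50), but 1 chronic cell held 166 of the 369 UMIs, and without the top cells the ratio was 1.30 (1.09 to 1.56). Endothelial cells had 1.84 (1.52 to 2.22), with 143 of the 261 chronic UMIs in 1 cell, and 1.04 (0.814 to 1.33) without the top cells. Keratinocytes, with 96 Cxcl9 UMIs in chronic and 55 in irradiated, showed no clear excess. Their ratio without the top cells was 1.13 (0.729 to 1.78), with an interval that includes 1. Acute over irradiated was 0.365 in macrophages (0.325 to 0.410), 0.422 in neutrophils (0.333 to 0.531) and 0.437 in keratinocytes (0.259 to 0.719). It was 0.676 in monocytes (0.598 to 0.763), 0.791 in fibroblasts (0.723 to 0.865) and 1.17 in endothelial cells (0.966 to 1.41).

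Cxcl9 was concentrated in few cells. Among macrophages and monocytes, 3.56% had a Cxcl9 UMI in pretreatment, 8.97% in continuous, 16.3% in chronic, 3.20% in acute, 7.68% in irradiated and 8.07% in normal. In T cells, which should lack the gene, the share was between 0% and 2.21%. The best 1% of macrophages and monocytes held between 36.2% of the Cxcl9 UMIs, in chronic, and 88.1%, in pretreatment. A single pretreatment cell held 108 of that library's 159 Cxcl9 UMIs, and without it the pretreatment level was 18.6 CPM; the log2 ratio to irradiated was then -2.48, against -0.88 with all cells. The barcode of that cell also occurs in the irradiated library, where it holds 0 Cxcl9 UMIs. Thinned to 1000 UMIs per cell, the shares were 1.36% in pretreatment, 5.26% in continuous, 9.90% in chronic, 2.46% in acute, 4.96% in irradiated and 5.04% in normal, with chronic still at the top.

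Endothelial cells had the highest mean Cxcl9 level of the gates, 251 ± 123 CPM (SD over 6 libraries, which differ in condition), next to 142 ± 108 in macrophages; the 2 gates overlap in range. By library, endothelial Cxcl9 was 58.9 CPM in pretreatment, 315 in continuous, 428 in chronic, 271 in acute, 233 in irradiated and 202 in normal. Without the cell with most UMIs in each library it was 47.3 CPM in pretreatment, 225 in continuous, 196 in chronic, 222 in acute, 188 in irradiated and 186 in normal, so that chronic was no longer the highest. Fibroblasts had 10.9 in pretreatment, 48.6 in continuous, 274 in chronic, 96.6 in acute, 122 in irradiated and 69.0 in normal. Keratinocytes ran differently, with Cxcl9 at 42.9 CPM in irradiated against 182 in normal, a ratio of 0.236 (0.170 to 0.323). Single keratinocytes held 25 of the 55 irradiated and 86 of the 154 normal UMIs; without them Cxcl9 was at 23.6 CPM in irradiated and 81.7 in normal, a ratio of 0.288 (0.181 to 0.449).

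Cxcl10 was highest in irradiated and lowest in pretreatment. Its level in macrophages and monocytes was 153 CPM in pretreatment, 525 in continuous, 342 in chronic, 504 in acute, 904 in irradiated and 262 in normal. Irradiated was 3.46 times normal (3.30 to 3.62), and pretreatment 0.169 times irradiated (0.153 to 0.186). Chronic stood at 0.378 times irradiated (0.365 to 0.391), continuous at 0.581 (0.563 to 0.599) and acute at 0.557 (0.543 to 0.572). The irradiated excess over normal was 3.28-fold in macrophages (3.10 to 3.47) and 3.74-fold in monocytes (3.47 to 4.03), but 1.39-fold in fibroblasts (1.33 to 1.46), 1.21-fold in endothelial cells (1.06 to 1.38) and 0.764 in keratinocytes (0.627 to 0.932). Without the top cells it was 1.08-fold in neutrophils (1.02 to 1.15) and 2.28-fold in T cells (1.73 to 3.03). The low pretreatment level, in contrast, extended to fibroblasts (0.330 times irradiated, 0.308 to 0.354), endothelial cells (0.101, 0.0678 to 0.146) and keratinocytes (0.176, 0.122 to 0.247), where 1 cell held 30 of the 40 pretreatment UMIs and the ratio without the top cells was 0.0602 (0.0283 to 0.114).

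Cxcl10 was more evenly spread over cells than Cxcl9. A UMI was found in 20.0% of macrophages and monocytes in pretreatment, 37.5% in continuous, 31.7% in chronic, 33.5% in acute, 48.7% in irradiated and 24.4% in normal. T cells, read as a background, had a Cxcl10 UMI in 6.55% to 16.0% of cells by library, at median depths of 967 to 5872 UMIs, against 1611 to 12442 UMIs in macrophages and monocytes. This background was itself higher in irradiated than in normal, at 126 against 55.4 CPM without the top cells. In pretreatment the myeloid share, 20.0%, stood near the 16.0% of T cells, while in irradiated 48.7% stood against 15.6%. At 1000 UMIs per cell the shares were 8.14% in pretreatment, 21.3% in continuous, 16.6% in chronic, 25.1% in acute, 37.6% in irradiated and 15.8% in normal. The order at fixed depth keeps irradiated first and pretreatment last, and puts acute above continuous. The best 1% of cells held 14.8% to 23.0% of the Cxcl10 UMIs. Schwann cells, with 30 to 60 cells in each of 4 libraries, had a mean Cxcl10 level of 707 ± 139 CPM (SD), above the fibroblast mean of 355 ± 180 over 6 libraries.

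Set against each other, the chemokines gave a count ratio that differed between libraries. In macrophages and monocytes there were 0.375 Cxcl9 UMIs per Cxcl10 UMI in pretreatment, 0.261 in continuous, 0.938 in chronic, 0.101 in acute, 0.117 in irradiated and 0.443 in normal. The pretreatment value rested on the cell with 108 of the 159 Cxcl9 UMIs. Without the cells with most UMIs of either gene it was 0.0519 (0.0309 to 0.0822), the lowest of the libraries, with chronic at 0.925 and irradiated at 0.115. The 95% intervals of chronic (0.898 to 0.979) and irradiated (0.111 to 0.123) were far apart, while acute (0.0942 to 0.109) lay just under irradiated. In fibroblasts the spread was smaller, at 0.0779 in pretreatment, 0.200 in continuous, 0.413 in chronic, 0.271 in acute, 0.289 in irradiated and 0.228 in normal. Chronic fibroblasts had more of both chemokines than irradiated ones, with Cxcl10 at 1.57-fold (1.49 to 1.65), whereas chronic macrophages had less Cxcl10, at 0.348 (0.334 to 0.364). Endothelial cells had more Cxcl9 per Cxcl10 UMI than the fibroblasts of the same library in all 6, from 0.516 in irradiated to 1.51 in continuous. Their chronic ratio of 0.949 rested on the cell with 143 Cxcl9 UMIs, and 64 of the 155 continuous Cxcl10 UMIs also lay in 1 cell. Without the cells with most UMIs of either gene the endothelial ratio was 0.511 in chronic and 1.78 in continuous, against 0.358 and 0.179 in fibroblasts, and the lowest was 0.436, in irradiated. Across both myeloid gates, 53.8% of the 1719 cells with a Cxcl9 UMI also had a Cxcl10 UMI, against 35.1% of cells without; their median depths were 3549 and 2052 UMIs, so depth moved with this difference and its part was not tested.

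**Figure D3:**
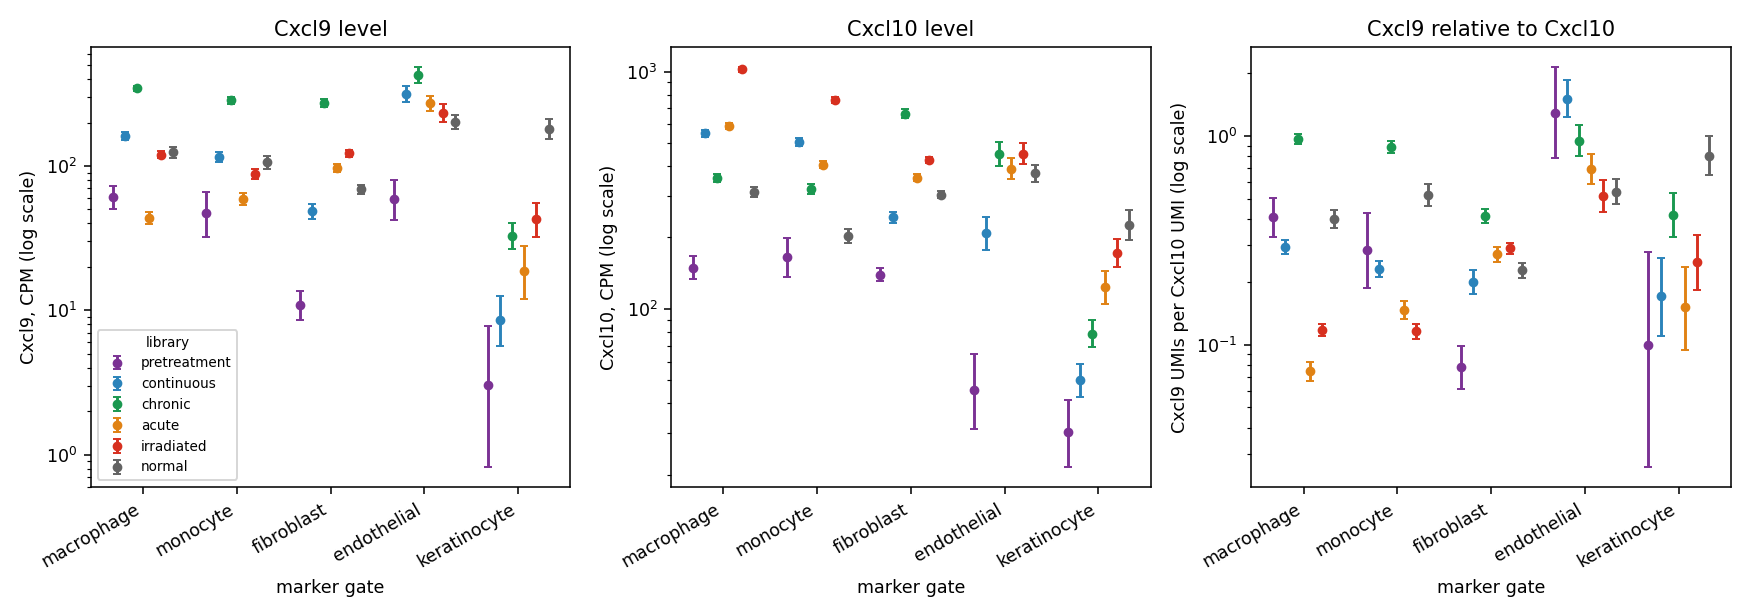
Cxcl9 level, Cxcl10 level (CPM, log axes) and Cxcl9 UMIs per Cxcl10 UMI (log axis) in 5 marker gates, with 1 point per library and exact 95% intervals for counting error. Chronic (green) is at the top for Cxcl9 in macrophages, monocytes and fibroblasts, and also in endothelial cells, where 1 cell held 143 of the 261 UMIs and the level without it was 196 CPM, under continuous and acute, while irradiated (red) is at the top for Cxcl10 in macrophages and monocytes, at 1020 and 758 CPM.

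The makeup of the myeloid gates differed between libraries. Macrophages made up 75.1% of macrophages plus monocytes in pretreatment, 46.4% in continuous, 58.9% in chronic, 52.9% in acute, 54.5% in irradiated and 53.5% in normal. Summed over 8 of 8 detected markers of type 2 conventional dendritic cells, the level in these gates was 2168 CPM in pretreatment and 239 to 427 in the other 5 libraries. Fibroblast markers, also 8 of 8 detected, summed to 246 CPM in pretreatment, 175 in continuous, 117 in chronic, 1128 in acute, 793 in irradiated and 902 in normal. The part of these differences in the chemokine levels was not tested, other than by the values within each gate given above.

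Cxcr3, the receptor of both chemokines, was sparse. Its UMIs in T and NK cells numbered 16 in pretreatment, 39 in continuous, 76 in chronic, 12 in acute, 19 in irradiated and 52 in normal. The corresponding Cxcr3 levels were 21.2 CPM in pretreatment (95% interval 12.1 to 34.5), 11.9 in continuous (8.46 to 16.3), 19.7 in chronic (15.5 to 24.7), 10.2 in acute (5.29 to 17.9), 12.8 in irradiated (7.72 to 20.0) and 36.5 in normal (27.2 to 47.8). In pretreatment 1 cell held 6 of the 16 UMIs, and without it the Cxcr3 level was 14.0 CPM. Normal was above continuous, chronic, acute and irradiated with no overlap of intervals. Irradiated was 0.352 times normal (0.196 to 0.605), a log2 ratio of -1.51, and -0.93 with a stricter gate of 3 markers, short of 2-fold. CD8 T cells had 3 Cxcr3 UMIs in 50 irradiated cells against 18 in 116 normal cells, a ratio of 0.331 whose interval, 0.0625 to 1.14, includes 1. CD8 T cells made up 5.93% of T and NK cells in irradiated and 14.2% in normal, and the part of that difference in the Cxcr3 level was not tested. By cell type, mean Cxcr3 was 35.5 ± 22.5 CPM in CD8 T cells (SD, 5 libraries), 22.9 ± 16.4 in regulatory T cells (6 libraries) and 20.9 ± 9.30 in CD4 T cells (5 libraries), which do not differ beyond their spread. NK cells had 1 Cxcr3 UMI in 166 cells over all libraries. A Cxcr3 UMI was found in 1.30% to 10.1% of T and NK cells by library, and in 0% to 0.719% of fibroblasts.

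Ifng levels in T and NK cells were 63.7 CPM in pretreatment, 120 in continuous, 110 in chronic, 182 in acute, 144 in irradiated and 88.4 in normal. The UMIs behind them numbered 48 in pretreatment, 395 in continuous, 425 in chronic, 213 in acute, 213 in irradiated and 126 in normal. In acute, the highest, 1 cell held 147 of the 213 UMIs, and without it the acute level was 56.5 CPM. The log2 ratio to irradiated was -1.12 with the top cell of both libraries left out, against 0.34 with them. Irradiated was 1.63 times normal (1.30 to 2.04), and pretreatment 0.443 times irradiated (0.317 to 0.608). The log2 ratio of pretreatment to irradiated was -1.17 with all UMIs and -0.10 with each cell thinned to 1000 UMIs. Regulatory T cells made up 45.5% of T and NK cells in pretreatment and 4.51% in irradiated. They held 5 of the 48 pretreatment Ifng UMIs, and the part of that difference in the Ifng level was not tested. The share of T and NK cells with an Ifng UMI was 10.1% in pretreatment, 9.50% in continuous, 8.36% in chronic, 3.26% in acute, 7.59% in irradiated and 6.74% in normal, against 0.171% to 1.26% of fibroblasts. So pretreatment, lowest by Ifng level when all cells are counted, was highest by unthinned share, at a median of 5814 UMIs per cell against 1268 in irradiated; at 1000 UMIs per cell the shares were 8.16% in pretreatment and 5.85% in irradiated. Acute stayed lowest at that fixed depth, at 3.38%.

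NK cells had the highest mean Ifng level, at 474 ± 265 CPM (SD, 4 libraries), next to 189 ± 122 in CD8 T cells and 150 ± 115 in CD4 T cells (5 libraries each). These means do not differ beyond their spread, whereas gamma-delta T cells, with 1208 cells in 5 libraries, had 9.05 ± 6.91. By library, NK Ifng was 1874 CPM in continuous (102 UMIs in 18 cells), 699 in chronic, 703 in acute, 298 in irradiated and 196 in normal. In continuous 70 of the 102 UMIs lay in 1 NK cell. Ifng in chronic over irradiated NK cells was 2.35 (1.27 to 4.52), and in acute over irradiated 2.36 (1.23 to 4.69). Without the top cell of each library, which held 16 of 37 UMIs in chronic, 14 of 27 in acute and 6 of 16 in irradiated, these ratios were 2.12 (0.957 to 5.05) and 2.08 (0.843 to 5.30), with intervals that include 1. In CD8 T cells Ifng was 199 CPM in irradiated and 62.4 in normal, a ratio of 3.18 (1.60 to 6.52), and in CD4 T cells 319 in irradiated and 117 in normal, a ratio of 2.72 (1.55 to 5.09). Without the top cells the ratio was 2.18 in CD8 T cells, with an interval of 0.948 to 5.03 that includes 1, and 2.73 in CD4 T cells (1.33 to 6.34). CD4 T cells of acute had 0.143 times the irradiated level (0.0632 to 0.286) and those of continuous 0.175 times (0.123 to 0.248).

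**Figure D4:**
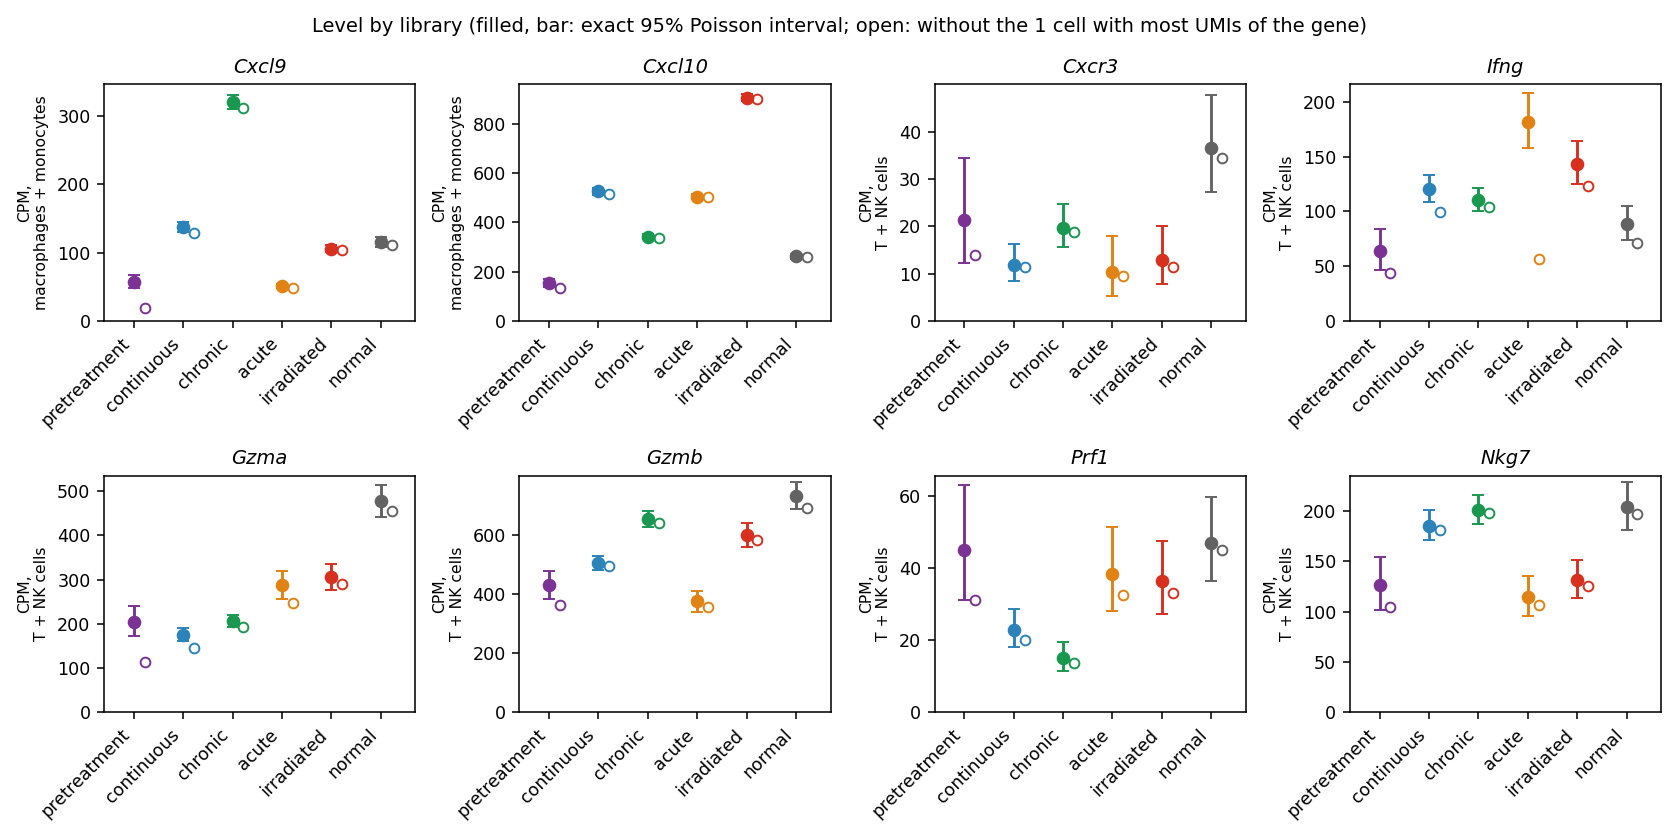
Level of each gene by library in its main cell types (CPM; axes start at 0); filled points with bars are the level and its exact 95% Poisson interval, open points the level without the 1 cell with most UMIs of that gene. The open point drops by the largest share for Cxcl9 in pretreatment (18.6, against 57.4 with all cells) and for Ifng in acute (56.5, against 182).

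Gzma, a granule protease, had its highest means in NK cells (4029 ± 679 CPM, SD, 4 libraries) and CD8 T cells (1204 ± 239, 5 libraries), against 49.3 ± 26.0 in gamma-delta T cells. In T and NK cells its level was 204 CPM in pretreatment, 176 in continuous, 206 in chronic, 287 in acute, 305 in irradiated and 478 in normal. Irradiated was 0.639 times normal (0.566 to 0.720). Within NK cells Gzma was 4557 CPM in continuous, 3987 in chronic, 5001 in acute, 3522 in irradiated and 3605 in normal, with irradiated over normal at 0.977 (0.805 to 1.18) and acute over irradiated at 1.42 (1.16 to 1.75). In CD8 T cells it was 924 in continuous, 1300 in chronic, 1548 in acute, 1051 in irradiated and 1198 in normal, with irradiated over normal at 0.877 (0.706 to 1.08). NK cells made up 1.94% of T and NK cells in continuous, 1.51% in chronic, 2.39% in acute, 4.15% in irradiated and 7.72% in normal, and CD8 T cells 8.75%, 7.70%, 3.15%, 5.93% and 14.2% in that order of libraries. The part of these shares in the Gzma level of the joint gate was not tested. Single cells weighed in the CD8 values: the CD8 ratio of irradiated to normal was 0.775 (0.612 to 0.975) without the top cells, and in continuous CD8 T cells 99 of the 201 UMIs lay in 1 cell, with 481 CPM without it. In pretreatment, 151 of 154 Gzma UMIs came from 5 NK cells, and 1 cell held 69; without it the level in T and NK cells was 115 CPM. A Gzma UMI was found in 83.3% of continuous, 87.0% of chronic, 95.5% of acute, 74.3% of irradiated and 76.2% of normal NK cells, against 0% to 1.52% of fibroblasts.

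Gzmb had a wider distribution. Its level in T and NK cells was 430 CPM in pretreatment, 505 in continuous, 653 in chronic, 375 in acute, 599 in irradiated and 732 in normal. All 5 ratios lay within 2-fold, from 0.626 for acute over irradiated (0.557 to 0.703) to 1.09 for chronic over irradiated (1.01 to 1.18). By cell type the Gzmb mean was 1141 ± 220 CPM in CD8 T cells (SD, 5 libraries), 1053 ± 243 in mast cells (2 libraries), 926 ± 200 in NK cells (4 libraries), 793 ± 228 in regulatory T cells (6 libraries) and 694 ± 159 in gamma-delta T cells (5 libraries). The mast cell value rests on 47 Gzmb UMIs in irradiated, 15 of them in 1 cell, and 32 in normal, 16 of them in 1 cell. Neighbours in that order do not differ beyond their spread, while CD4 T cells outside the regulatory gate had 204 on average. A Gzmb UMI was seen in 44.4% of T and NK cells in pretreatment, 36.3% in continuous, 36.5% in chronic, 19.8% in acute, 33.5% in irradiated and 40.7% in normal, against 0.514% to 3.59% of fibroblasts. At 1000 UMIs per cell these shares were 27.6% in pretreatment, 25.4% in continuous, 27.3% in chronic, 19.6% in acute, 31.0% in irradiated and 35.9% in normal. Regulatory T cells, which suppress other lymphocytes, made up 45.5% of T and NK cells in pretreatment and between 3.48% and 12.3% in the other libraries; their Gzmb level was 391 CPM in pretreatment against 921 in irradiated, a ratio of 0.425 (0.329 to 0.549).

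Prf1 followed Gzma by cell type at lower counts. In T and NK cells it had 34 UMIs in pretreatment, 75 in continuous, 58 in chronic, 45 in acute, 54 in irradiated and 67 in normal. Its level was 45.1 CPM in pretreatment, 22.9 in continuous, 15.0 in chronic, 38.4 in acute, 36.4 in irradiated and 47.0 in normal. Chronic stood at 0.413 times irradiated (0.280 to 0.610). NK cells made up 1.51% of these cells in chronic and 4.15% in irradiated, and 8 of 8 NK markers summed to 56.6 CPM in chronic and 146 in irradiated. Within the NK gate chronic Prf1 was 0.446 times irradiated (11 and 25 UMIs, interval 0.198 to 0.940), with an interval of 0.200 to 1.15, which includes 1, without the top cell of each library, and within CD8 T cells 0.799 times (0.370 to 1.86). With NK cells left out, T cells alone gave 0.609 (0.375 to 1.00), short of 2-fold, and over all kept cells, with no gate, the ratio was 1.00 (0.764 to 1.31). Acute CD8 T cells had 17 Prf1 UMIs in 29 cells against 10 in 50 irradiated cells, a ratio of 3.93 (1.70 to 9.60), with 7 of the 17 in 1 cell and a ratio of 3.05 (1.08 to 8.88) without the top cells. The mean Prf1 level was 395 ± 125 CPM in NK cells (SD, 4 libraries) and 122 ± 114 in CD8 T cells (5 libraries).

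Nkg7 was 126 CPM in T and NK cells of pretreatment, 185 in continuous, 201 in chronic, 114 in acute, 132 in irradiated and 203 in normal. Chronic over irradiated was 1.53 (1.30 to 1.79) and irradiated over normal 0.647 (0.537 to 0.779), both within 2-fold. In CD8 T cells the chronic level was 922 against 439 in irradiated, a ratio of 2.10 (1.57 to 2.86). NK and CD8 T cells had the highest Nkg7 means, 880 ± 278 (SD, 4 libraries) and 695 ± 181 (5 libraries), which do not differ beyond their spread. Over all kept cells of a library, gated or not, Nkg7 was 3.26-fold higher in chronic than in irradiated (2.92 to 3.66) and 2.36-fold higher in continuous (2.10 to 2.65), where T and NK cells made up 17.9% of chronic, 11.3% of continuous and 4.23% of irradiated cells.

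Cells with Ifng carried cytotoxic genes more often than cells without. Of 374 T and NK cells with an Ifng UMI, 68.7% also had a UMI of Gzma, Gzmb, Prf1 or Nkg7, against 42.1% of cells without Ifng. The direction was the same in every library, but in irradiated and pretreatment the interval included the value of cells without. The shares there were 53.1% (40.2% to 65.7%) against 40.7% in irradiated, and 90% (55.5% to 99.7%) against 58.4% in pretreatment. Nkg7 was seen in 50% of the Ifng cells and in 14.1% of the rest. Of 395 cells with Gzma, 69.4% had Gzmb, against 30.8% of cells without. Cxcr3 and Ifng shared 17 cells, 4.55% of the Ifng cells and 9.34% of the 182 Cxcr3 cells, against 3.47% and 7.23% of cells without; the intervals of both shares (2.67% to 7.18% and 5.54% to 14.5%) include the values of cells without. The median depth was 1924 UMIs in cells with Ifng and 1716 in cells without, and cells of all libraries were pooled for the shares not given by library. NK cells and all kinds of T cells were also pooled. Ifng, Gzma, Prf1 and Nkg7 each had their highest mean in NK cells and the next in CD8 T cells. The part of cell type in these shares was not tested.

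Genes whose pattern over 20 pooled gates was most like that of each member were taken from 13518 genes, by Pearson's r of log2 levels. The gates share libraries and depth, so r is a description. Ifng was closest to Tbx21 (r = 0.96), which encodes T-bet, a transcription factor of type 1 lymphocytes, then to Sh2d1a and Gm2682. Gzma and Prf1 shared Xcl1 (r = 0.98 and 0.99), a chemokine gene of NK and CD8 T cells, as their nearest gene, with Eomes in the list of both and r = 0.97 between them. Nkg7 was nearest to Gm2682 (0.97), Fam78a and Ms4a4b, and Gzmb to Sytl3 (0.95), Gfi1 and Gm19585. Cxcr3 was nearest to Gm8369 (0.94), BE692007 and Cd2. Cxcl9 had Anxa3 (0.80), Ppnr and Vcam1, and Cxcl10 had Gpr137 (0.82), Socs3 and Gnaq, all at a lower r; between Cxcl9 and Cxcl10 r was 0.54.

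Other interferon-gamma-inducible genes were counted in macrophages and monocytes from a list of 20, of which 19 had a matching symbol and 17 had 20 UMIs in each comparison. The shares of all genes at 2-fold in these cells are repeated beside the counts. Irradiated against normal, 1 was higher and none lower, where 3.23% of all genes were higher and 1.92% lower: Gbp5, a guanylate-binding protein, was 3.31-fold higher (2.88 to 3.82), and the median log2 ratio of the list was 0.56 against -0.083 for all genes. Pretreatment against irradiated, 12 were lower and 1 higher, where 14.8% of all genes were lower and 14.5% higher, with a median of -1.44 against 0.13. Nos2, inducible nitric oxide synthase, had 0 UMIs in pretreatment against 2724 in irradiated, at least 155-fold lower with the 0 set to 3 UMIs. Gbp5 stood at 0.112 times (0.0743 to 0.163) and Cd274, which encodes PD-L1, at 0.170 times (0.146 to 0.198), while Ciita, the activator of MHC class II, was 5.08-fold higher (3.80 to 6.78). Continuous against irradiated, Psmb9 (2.00-fold) and Ciita (2.40-fold) were higher and Nos2 lower (0.229), where 4.83% of all genes were higher and 11.5% lower, with a median of 0.33 against -0.054. Chronic against irradiated, Gbp5 (0.363) and Nos2 (0.414) were lower and none higher, where 6.94% of all genes were lower and 2.26% higher, with a median of -0.23 against -0.004. Acute against irradiated, 5 were lower and none higher, among them Gbp4 (0.328), Gbp5 (0.329) and Iigp1 (0.386), where 0.881% of all genes were lower and 1.99% higher, with a median of -0.64 against 0.074.

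**Figure D5:**
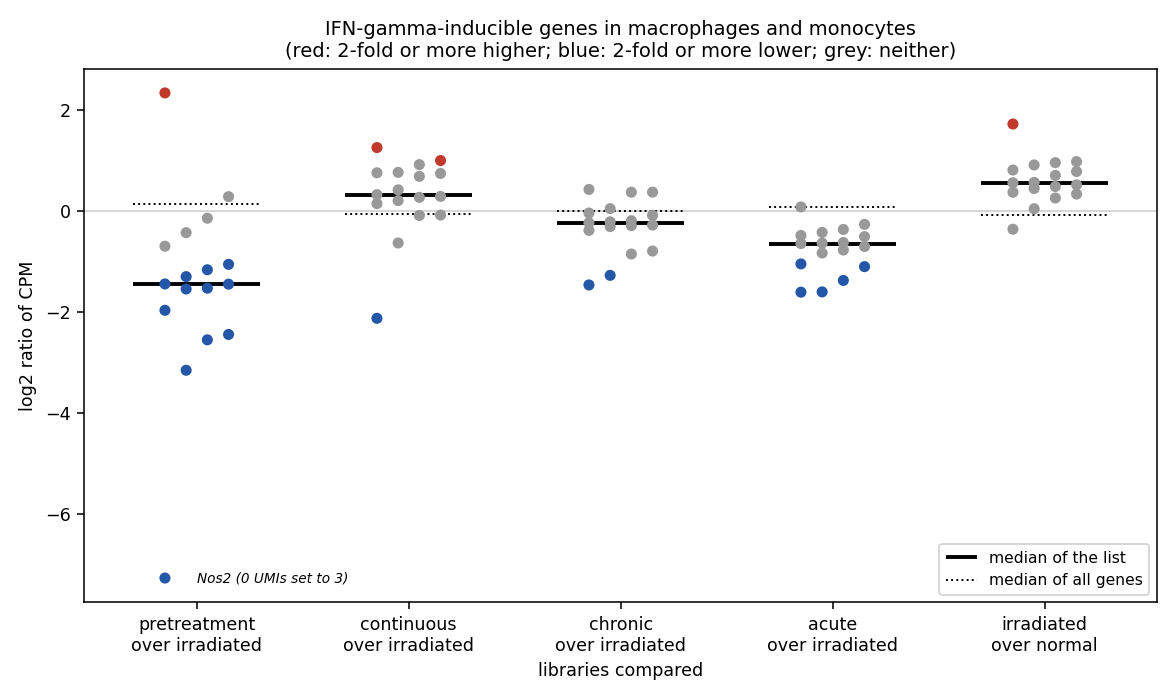
Log2 ratio of the level of each interferon-gamma-inducible gene with at least 20 UMIs (17 per comparison) in macrophages plus monocytes, for 5 pairs of libraries, with the median of the list (solid) and of all genes (dotted). Points lie mostly under 0 in the pretreatment and acute columns, where 12 and 5 genes were 2-fold or more lower, and mostly over 0 in the irradiated against normal column.

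In T and NK cells, where 15 or 16 of the inducible genes had 20 UMIs, 2 were higher in irradiated than in normal, Nos2 (2.89-fold) and Fcgr1 (2.36-fold), and none lower, where 3.94% of all genes were higher and 2.23% lower. Against irradiated, 5 were lower in pretreatment, 4 in continuous, 3 in chronic and 1 in acute, and none higher. Of all genes in these cells, 17.3% were lower in pretreatment, 10.6% in continuous, 9.39% in chronic and 2.57% in acute. Macrophage markers, 8 of 8 detected except 5 of 8 in pretreatment, summed in these T and NK gates to 18.6 CPM in pretreatment, 76.8 in continuous, 191 in chronic, 562 in acute, 451 in irradiated and 300 in normal. Their part in these counts was not tested.

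Of 9 receptor and signalling genes, Ifngr1 to Ptpn2, all had 20 UMIs in every comparison. In T and NK cells Irf8, an interferon-regulated transcription factor, was the 1 gene at 2-fold, at 0.480 times irradiated in chronic (0.403 to 0.573). Of all genes, 9.39% were lower there, so that 1 of 9 is close to the background. In macrophages and monocytes 3 of the 9 were lower in pretreatment than in irradiated, where 14.8% of all genes were lower. They included the kinase Jak2 (0.351) and the transcription factor Irf1 (0.445). Irf1 was also the 1 gene lower in chronic (0.459), where 6.94% of all genes were lower. None was 2-fold or more higher in any of the 5 comparisons in either group of cells, where between 1.46% and 14.5% of all genes were higher.

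The 14 inducers of Ifng comprise the cytokines that drive it, their receptors and the transcription factors of type 1 lymphocytes. In macrophages and monocytes, irradiated against normal, 2 were higher, Tbx21 (3.22-fold) and Il27 (2.44-fold), and none lower, where 3.23% of all genes were higher and 1.92% lower. Pretreatment against irradiated, 10 were lower and 1 higher, and continuous against irradiated, 7 were lower and 1 higher; the higher gene was Il18 in both, 2.70-fold each, an interleukin that raises Ifng in lymphocytes. Of all genes, 14.8% were lower and 14.5% higher in pretreatment, and 11.5% lower and 4.83% higher in continuous. Among the lower genes in both pairs were Il2rb, Il18r1, Tbx21 and Eomes, which are lymphocyte genes, named here after their values were seen. Markers of T cells summed in these myeloid gates to 4.33 CPM in pretreatment, with 3 of 8 detected, and, with 8 of 8 detected, to 15.7 in continuous, 105 in chronic, 93.1 in acute, 101 in irradiated and 109 in normal; their part in these counts was not tested. Chronic against irradiated, 3 were lower, Eomes (0.302), Il27 (0.356) and Il12a (0.415), and acute against irradiated, Tbx21 (0.429) and Eomes (0.455), where 6.94% of all genes were lower in chronic and 0.881% in acute. Among T and NK cells, 9 of the 14 had 20 UMIs. Pretreatment against irradiated, 3 were lower, Il18r1 (0.332), Il12rb1 (0.482) and Il18rap (0.491), which encode subunits of the receptors of interleukin-18 and interleukin-12, and Ebi3 was higher (2.95-fold). The other interleukin-12 receptor chain, Il12rb2, was the 1 gene lower in irradiated than in normal (0.402, 0.268 to 0.593). Eomes was the 1 gene lower in continuous (0.393) and Tbx21 the 1 gene lower in acute (0.474, 0.243 to 0.877), and no gene reached 2-fold in chronic. The shares of all genes in T and NK cells are those given for the inducible genes, and 5.94% were higher in pretreatment. Regulatory T cells were 45.5% of the pretreatment T and NK cells and 4.51% of the irradiated ones, and their part in the pretreatment values was not tested.

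Of 18 further cytotoxic granule and death-ligand genes in T and NK cells, 11 or 13 had 20 UMIs per comparison. Irradiated against normal, 2 were lower, Tnfsf10 (0.321) and Gzmk (0.378), and none higher, where 2.23% of all genes were lower and 3.94% higher. Pretreatment against irradiated, 4 were higher, led by Gzmc (5.29-fold), Xcl1 (4.31-fold) and Klrg1 (3.93-fold), and 2 lower, the granzyme inhibitor Serpinb9 (0.324) and the granzyme-activating protease Ctsc (0.456); of the 167 Gzmc UMIs, 93 came from 1 cell. Continuous against irradiated, Tnfsf10 (4.70-fold) and the chemokine Ccl5 (2.18-fold) were higher, and Ctsc (0.363), Lamp1 (0.366) and Serpinb9 (0.449) lower. Ctsc and Lamp1 also had high levels in macrophages and monocytes, 1184 and 789 CPM in continuous against 1047 and 902 in irradiated, whereas in T and NK cells they were at 47.6 and 49.4 in continuous against 131 and 135 in irradiated. The macrophage markers in the T and NK gates, 76.8 CPM in continuous against 451 in irradiated, moved with them, and their part was not tested. Chronic against irradiated, Tnfsf10 (2.23-fold, interval 0.853 to 7.38) and Ccl5 (2.20-fold, 1.95 to 2.49) were higher and none lower. Of all genes in T and NK cells, 5.94% were higher and 17.3% lower in pretreatment, 4.36% and 10.6% in continuous, 2.66% and 9.39% in chronic, and 1.46% and 2.57% in acute. Acute against irradiated, Fasl, which encodes Fas ligand, was the 1 lower gene (0.351, 0.184 to 0.632) and none was higher. In macrophages and monocytes, 1 gene of this list was higher in irradiated than in normal, and against irradiated 3 were lower in pretreatment, 2 higher and 4 lower in continuous, none at 2-fold in chronic and 3 higher in acute. The list had 12 genes with 20 UMIs in the pretreatment and continuous pairs, where 14.8% and 11.5% of all genes were lower and 14.5% and 4.83% higher. It had 13 in irradiated against normal, where 3.23% of all genes were higher and 1.92% lower. For chronic it had 13, where 2.26% were higher and 6.94% lower, and for acute 15, where 1.99% were higher and 0.881% lower. The T cell markers of these gates were as given for the inducers.

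Hashtag antibodies did not split the libraries into samples. At a cut of 60% of antibody UMIs for 1 tag, 96.0% of normal cells were assigned to tag TotalSeq-B-0307 and 55.2% of chronic cells were assigned to tag TotalSeq-B-0308. Over all tags, 496 of 19911 irradiated cells and 401 of 21719 acute cells reached the cut, with at most 2.20% of either library for a single tag. The chronic cells of tag TotalSeq-B-0308 had Cxcl9 at 404 CPM and Cxcl10 at 318 in macrophages and monocytes, next to 320 and 342 in the whole chronic library. The whole includes these cells: they were 1839 of the 2792 chronic macrophages and monocytes and held 3501 of the 4082 Cxcl9 UMIs. The high chronic Cxcl9 level thus lay mostly in cells of this tag. The other chronic cells were below the 320 CPM of the whole library, at a level that was not computed. The 3.03-fold ratio of chronic to irradiated was not recomputed without the cells of this tag, so its size in the other chronic cells is not known. The normal cells of tag TotalSeq-B-0307 had Cxcl9 at 96.6 CPM and Cxcl10 at 297, next to 116 and 262 in the whole normal library. They were 3083 of the 3481 normal macrophages and monocytes and held 639 of the 972 Cxcl9 UMIs.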

How the data were processed

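Each of the 6 libraries was deposited by the authors as UMI counts for every gene in every barcode, and Cell Ranger 6.0.0 is the version that the file headers give. The submitters' processing notes name Cell Ranger, Seurat 5.0.1 and the pig build Sscrofa11.1, whereas the gene features are mouse; the mouse build is not given in the sources used here. Antibody features were kept out of gene totals.

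Cells with at least 500 UMIs, 300 genes and at most 20% mitochondrial UMIs were kept. Doublets were scored with Scrublet in scanpy 1.11.5 (seed 0), and the top-scoring 0.8% for every 1000 barcodes, at most 10%, were removed; Scrublet's own threshold marked 0% in acute and normal and 22.0% in irradiated. A cell entered a gate with at least 2 of 8 markers of a panel and more than of every other lineage; NK cells also had 0 UMIs of Cd3d, Cd3e and Cd3g. Cells are not replicates, so UMIs were summed per gate and library. Levels are CPM with exact 95% Poisson intervals, ratios have exact conditional binomial intervals, and shares have Clopper-Pearson intervals; a count of 0 was set to a floor of 3 in ratios. PCR copies are removed by UMIs, but cells of 1 library share their source, so intervals cover counting error only. Between 1811 and 25052 deposited barcodes per library, with medians of 1339 to 7040 UMIs per barcode, of which 1477 to 21719 cells were kept, set the precision. No test between libraries was possible with 1 library per label. The code was tested on simulated data. No deposited per-sample column was left unused.

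The 8 genes and the gene lists were chosen with earlier results of these data known. List genes were named at 2-fold or more, at most 3 in each direction per list and comparison; Cxcl11 of the inducible list had no matching symbol. Alternatives covered the gate rule, cell filter, doublets, scaling, depth, shared barcodes and the UMI minimum. Ratios within single gates were also computed without the cell with most UMIs of the gene in each library, an alternative chosen after seeing the data. For 1 of the genes counted in the lists, the name and values are not reported here.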

Additional observations from a re-analysis of the deposited data

How the results depend on the processing

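No paired analysis was possible because each label has 1 library and no result comes from a test. Of 480 recomputed ratios of single genes, 377 moved by less than their counting interval, 102 moved by more and 1 changed sign after being 2-fold or more: Prf1 in chronic against irradiated, at a log2 ratio of 0.0045 over all kept cells, against -1.28 in T and NK cells. The number of genes at 2-fold or more changed as follows; the cause was not tested. Under the gate of 3 markers with a lead of 2, irradiated against normal had 0 lower, and against irradiated, continuous had 1 lower and acute 1 higher. Against irradiated again, the stricter cell filter gave 1 lower in pretreatment and 1 higher in acute. Averaging over cells gave 2 lower in acute. Thinning to 1000 UMIs gave 1 lower in continuous and 0 lower in acute. The next 3 alternatives were chosen after seeing the data. T cells without NK cells and macrophages without monocytes gave 1 lower in chronic. All kept cells gave 2 lower in irradiated against normal, and against irradiated 4 lower in pretreatment, 1 higher in continuous, 3 higher and 0 lower in chronic, and 0 lower in acute. Without the cell with most UMIs of a gene, pretreatment had 4 lower and acute 2 lower. Pretreatment had 3 lower under Scrublet's own threshold, without shared barcodes, and in T cells without NK cells and macrophages without monocytes, against 2 in the report. Every other count was as in the report. Cxcl10 in irradiated against normal was 2-fold or more higher under each of these alternatives, at log2 ratios of 1.06 to 1.88, and so was Cxcl9 in chronic against irradiated, at 1.12 to 1.66. None of the alternatives left out cells by hashtag. Cells under 1000 UMIs were left out when thinning, and counts of 12 to 76 UMIs per library in T and NK cells limit the Cxcr3 and Prf1 ratios.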

Other observations

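A further granzyme gene appeared outside the lymphocyte gates in single cells. Gzmc UMIs in ungated cells, which met no panel or tied between lineages, numbered 441 in continuous, 192 of them in 1 cell, against 101 in irradiated, 71 of them in 1 cell. In macrophages and monocytes Gzmc had 88 UMIs in continuous, 85 of them in 1 cell, 151 in acute and 31 in irradiated. Gzmd had 37 UMIs in acute macrophages and monocytes, 18 of them in 1 cell, and 0 in irradiated, and all 30 Gzmf UMIs of acute macrophages and monocytes lay in 1 cell, against 5 UMIs in irradiated.

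Xcl1, the gene whose pattern over gates was most like those of Gzma and Prf1, had these values by library; pretreatment had 5 NK and 2 CD8 T cells and is left out. In NK cells its level was 202 CPM in continuous, 1247 in chronic, 313 in acute, 317 in irradiated and 351 in normal. In CD8 T cells Xcl1 was 354 in continuous, 92.5 in chronic, 38.2 in acute, 49.6 in irradiated and 8.32 in normal. The chronic NK value rested on 66 UMIs in 23 cells, 22 of them in 1 cell, and the continuous CD8 value on 77 UMIs in 81 cells, 35 of them in 1 cell.

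Ccl5, a chemokine gene of T cells and macrophages, was also counted in both groups of cells. In T and NK cells its level was 448 CPM in chronic against 204 in irradiated, and in macrophages and monocytes 535 against 591. In pretreatment Ccl5 was 410 in T and NK cells, against 204 in irradiated, and 37.2 in macrophages and monocytes, against 591 in irradiated.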
